A study of Mus musculus with 6 samples.

Results

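The genes described here encode the nuclear subunits of the 5 mitochondrial complexes that make ATP from respiration: complexes I to IV of the respiratory chain and complex V, the ATP synthase. They were chosen by gene symbol alone (Nduf subunit genes, Sdha to Sdhd, Uqcr, Cox4 to Cox8 and Atp5 names), a rule that uses no measured value but was set with earlier results of these data known, and each gene was represented by its brightest probe set that carries a single symbol. This gave 81 of the 18193 genes on the array: 33 of complex I, 4 of complex II, 8 of complex III, 19 of complex IV and 17 of complex V. Of these, 79 passed the filter on low intensity, among 12734 genes that passed it. The 2 that did not were the complex IV isoforms Cox4i2 and Cox7b2.

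RNA was taken from kidneys of male FVB/N mice aged 6 to 8 weeks and weighing 22 to 26 g. The vessels of 1 kidney were clamped under pentobarbital anaesthesia for 0, 45 or 60 min and then released, which stops and restores its blood flow. Kidneys were collected at day 1 or day 3. There were 6 Affymetrix arrays, 1 for each combination of clamp time and day, so no group had a replicate. Whether the arrays came from 6 separate mice or from pooled RNA is not stated, so every p-value below measures only the spread left among these 6 arrays. The title of the series names TNF blockade, but all 6 kidneys are labelled by clamp time and day alone.

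Complex I takes electrons from NADH and complex II, succinate dehydrogenase, takes them from succinate. Both pass them by way of coenzyme Q to complex III, and from there cytochrome c carries them to complex IV, which reduces oxygen. Complexes I, III and IV pump protons across the inner mitochondrial membrane, and the ATP synthase lets them flow back and makes ATP. Proximal tubule cells, which reabsorb most of the filtered salt and solutes, hold many mitochondria and rely on respiration for ATP. All 4 subunits of complex II are encoded in the nucleus, whereas the mitochondrial genome encodes core subunits of the other complexes. Mitochondrial-encoded subunits matched no symbol of the platform annotation and were not analysed here.

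Many of these nuclear genes are known to share promoter elements, so the sequence just before the start of 1 gene of each complex, and of a second ATP synthase gene, is shown with the values that follow. RefSeq promoter windows (build GRCm38.p6, 300 bases: 250 before to 50 after the gene start) were held for 66 of the 81 members, in 71 windows. They were searched on both strands for GCGCANGCG (bound by the factor NRF1, nuclear respiratory factor 1), CCGGAAG (bound by ETS factors such as GABP), AAGATGGCG (bound by YY1) and TCAAGGTCA (bound by estrogen-related receptors, ERR). The NRF1 letters were in 19 of 71 member windows (26.8%), against 6.25% of all 32851 windows of that length. The ETS letters were in 17 (23.9%, against 8.86%), the YY1 letters in 6 (8.45%, against 1.40%) and the ERR letters in 2 (2.82%, against 0.423%). At least 1 of the 4 was in 35 member windows (49.3%) and in 15.2% of all windows. A match describes letters and does not show that a factor binds there, and GCGCANGCG can match both strands at overlapping positions. None of the 4 motifs contains another.

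The 150 bases before the start are given 5′ to 3′ on the strand of the gene, with each match in capitals. All 6 genes lie on the minus strand, at chr2:36049339-36049488 (Ndufa8, complex I, 2 NRF1 matches), chr13:74350241-74350390 (Sdha, complex II, 3 NRF1 matches), chr4:116075071-116075220 (Uqcrh, complex III, an ETS match), chr5:115348959-115349108 (Cox6a1, complex IV, NRF1 and ETS matches), chr11:115419920-115420069 (Atp5h, complex V, NRF1 and ETS matches) and chr2:73911327-73911476 (Atp5g3, complex V, an ERR match).
Ndufa8: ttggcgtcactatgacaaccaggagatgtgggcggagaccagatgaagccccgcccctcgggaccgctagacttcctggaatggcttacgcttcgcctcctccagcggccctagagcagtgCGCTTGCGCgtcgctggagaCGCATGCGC
Sdha: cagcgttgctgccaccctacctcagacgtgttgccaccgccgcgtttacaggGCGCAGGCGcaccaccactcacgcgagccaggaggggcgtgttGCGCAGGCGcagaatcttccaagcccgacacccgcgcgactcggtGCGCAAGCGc
Uqcrh: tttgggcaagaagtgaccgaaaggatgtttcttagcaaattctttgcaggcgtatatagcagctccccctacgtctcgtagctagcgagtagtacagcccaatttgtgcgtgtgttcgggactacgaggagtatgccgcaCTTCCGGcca
Cox6a1: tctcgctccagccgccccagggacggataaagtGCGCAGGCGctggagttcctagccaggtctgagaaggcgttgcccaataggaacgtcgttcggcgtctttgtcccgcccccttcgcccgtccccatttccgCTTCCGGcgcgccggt
Atp5h: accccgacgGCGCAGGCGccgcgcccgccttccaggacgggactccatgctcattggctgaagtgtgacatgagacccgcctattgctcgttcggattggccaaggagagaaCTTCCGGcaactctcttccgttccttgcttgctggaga
Atp5g3: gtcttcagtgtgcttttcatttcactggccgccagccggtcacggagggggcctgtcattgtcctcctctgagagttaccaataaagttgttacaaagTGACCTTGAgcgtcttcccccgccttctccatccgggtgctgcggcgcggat

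Array quality was compared first. The median intensity of an array lay between 81.4 and 95.3, and the mean after trimming 2% at each end was 500.003 on each of the 6, the result of scaling to a common target. Beta-actin control probe sets at the 3' end were brighter than those at the 5' end, a gap that widens in degraded RNA, by log2 1.08 to 1.12 on the 3 day 1 arrays. At day 3 it was 0.77 at 0 min, 1.03 at 45 min and 0.49 at 60 min. The 2 arrays farthest apart in member level at day 3 were thus also those with the lowest beta-actin ratios, on opposite sides of the comparison. The same log2 difference for Gapdh control probe sets was -0.37 on both of these arrays and -0.37 to -0.20 over all 6. The part of RNA quality in the results was not tested. Kidney markers were present on all arrays: Slc34a1, the phosphate transporter of the proximal tubule, read 18632, 17830 and 13046 at day 1 (0, 45 and 60 min) and 24355, 24702 and 17153 at day 3. Havcr1, a marker of injured tubules, read 599, 4216 and 13011 at day 1 and 1242, 2548 and 11483 at day 3, in the order of clamp time on both days.

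In all 5 complexes the median subunit gene was lower after a 60 min clamp than after 0 min, by a small amount. At day 1 the median member was lower by 0.24 on the log2 scale (15.2% lower), and 76 of 79 members were below their 0 min value. At day 3 the median difference was -0.42 (25.1% lower), and 74 of 79 were below. Across all 12734 genes tested the same medians were 0.03 and 0.04. The interquartile range of the members was 0.18 at day 1 and 0.21 at day 3, against 0.51 and 0.61 over all genes. At day 3 it was 0.46 in complex IV and 0.07 to 0.23 in the other complexes. Of the members, 67 had a mean intensity of at least 5000, and the range was not computed for other genes as bright. In whole kidney RNA, fewer cells rich in mitochondria and less of these RNAs per cell cannot be told apart.

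Lower by at least 20% on the 60 min than on the 0 min array were 21 of 79 members at day 1, where 17.1% of all genes were, and 59 of 79 at day 3, where 20.2% of all genes were. Higher by at least 25% were 1 member at day 1 (Cox6b2; 23.3% of all genes) and 4 at day 3 (Cox6a2, Cox6b2, Cox7c and Ndufa4l2; 27.5% of all genes). At 2-fold, 0 of 79 members were lower at day 3 and 2.32% of all genes were. For 69 of 79 members both 60 min arrays lay below both 0 min arrays, which held for 23.5% of all genes. The plot of members on the 6 arrays shows this as a downward step at 60 min on each day. The lowest of the 6 arrays was 60 min day 3 for 43 members (54.4%, against 21.3% of all genes) and 60 min day 1 for 32 (40.5%, against 12.8%). The highest was 0 min day 3 for 52 (65.8%, against 15.5%).

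**Figure D1:**
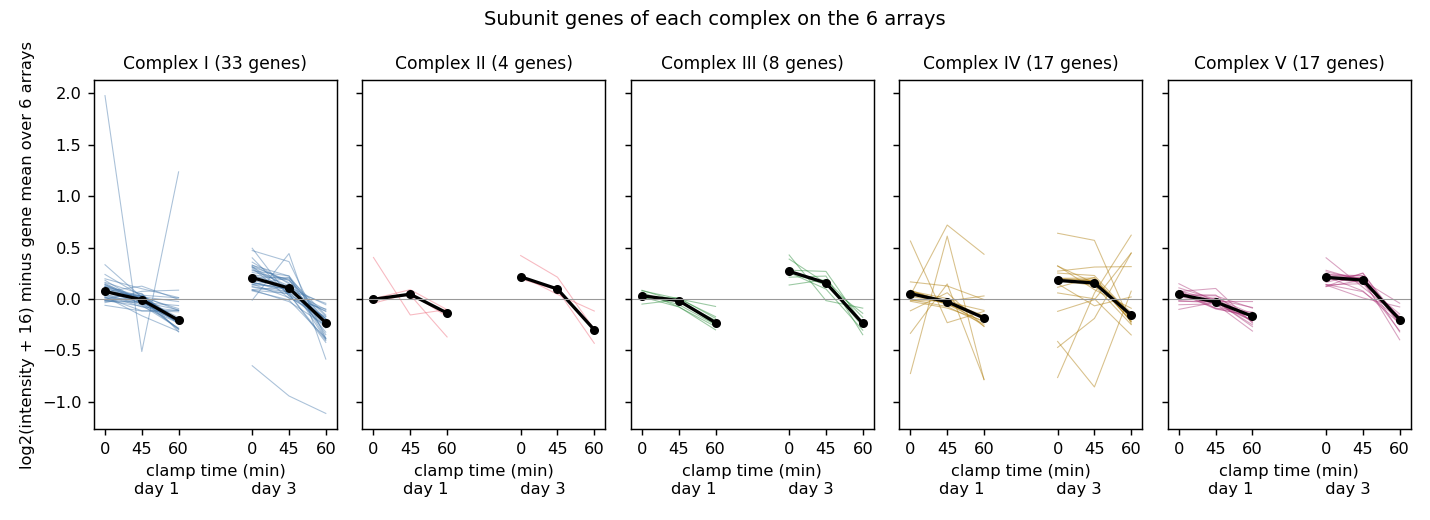
Each thin line is a gene that passed the filter and the black line is the median of its complex, plotted as log2(intensity + 16) minus the gene's mean over the 6 arrays against clamp time in minutes, with day 1 left and day 3 right in each panel. Both 60 min arrays lie below both 0 min arrays for 69 of 79 genes. The widest excursion in complex I is the chosen probe set of Ndufs5, and the crossing lines in complex IV are mainly dim probe sets. Cox7a2l, which is not dim, rises from 45 to 60 min at day 3.

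A 45 min clamp gave much smaller differences. The median member differed from 0 min by -0.08 at day 1 and by -0.07 at day 3, against 0.02 and -0.03 over all genes, and the day 1 median changed sign under quantile normalization (0.044). Median centring gave -0.15 and -0.16. By at least 20%, 3 members were lower at day 1 (Ndufs5, Sdha and Cox6a2), where 12.6% of all genes were, and 4 at day 3 (Ndufa3, Ndufs8, Uqcrc1 and Cox6b2), where 15.6% were. For Ndufs5, Ndufs8 and Ndufa3 this rests on the chosen probe set, and the Cox6a2 probe set is dim. The other Ndufs5 probe set, which also names its pseudogene, gave -0.03 at day 1 on the log2 scale. Other Ndufs8 probe sets gave -0.21 to -0.09 on the log2 scale, or 0.22 on a dim one. A second bright Ndufa3 probe set gave -0.19. By at least 25%, 3 members were higher at day 1 (Cox6b2, Cox7a1 and Cox8b), where 21.0% of all genes were, and 2 at day 3 (Ndufb1 and Ndufa4l2), where 14.3% were. Both 45 min arrays lay below both 0 min arrays for 13 members, against 16.6% of all genes, so this count was close to the background. Of the 13, 10 were among the 33 complex I genes, where 16.6% of all genes did the same. As the total was close to the background, this split by complex is not read as a result.

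Set directly against 45 min, the 60 min array had a median member difference of -0.17 at day 1 and -0.37 at day 3. By at least 20%, 6 members were lower at day 1 (14.5% of all genes) and 49 at day 3 (17.4% of all genes). Both 60 min arrays lay below both 45 min arrays for 65 of 79 members and for 18.8% of all genes. The 14 exceptions included 6 of the 17 complex IV genes and Sdha, whose 45 min value at day 1 (10123) was already as low as its 60 min value (10502). On another bright Sdha probe set the 45 min day 1 array (8440) was above both 60 min arrays (7489 and 6015).

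**Figure D2:**
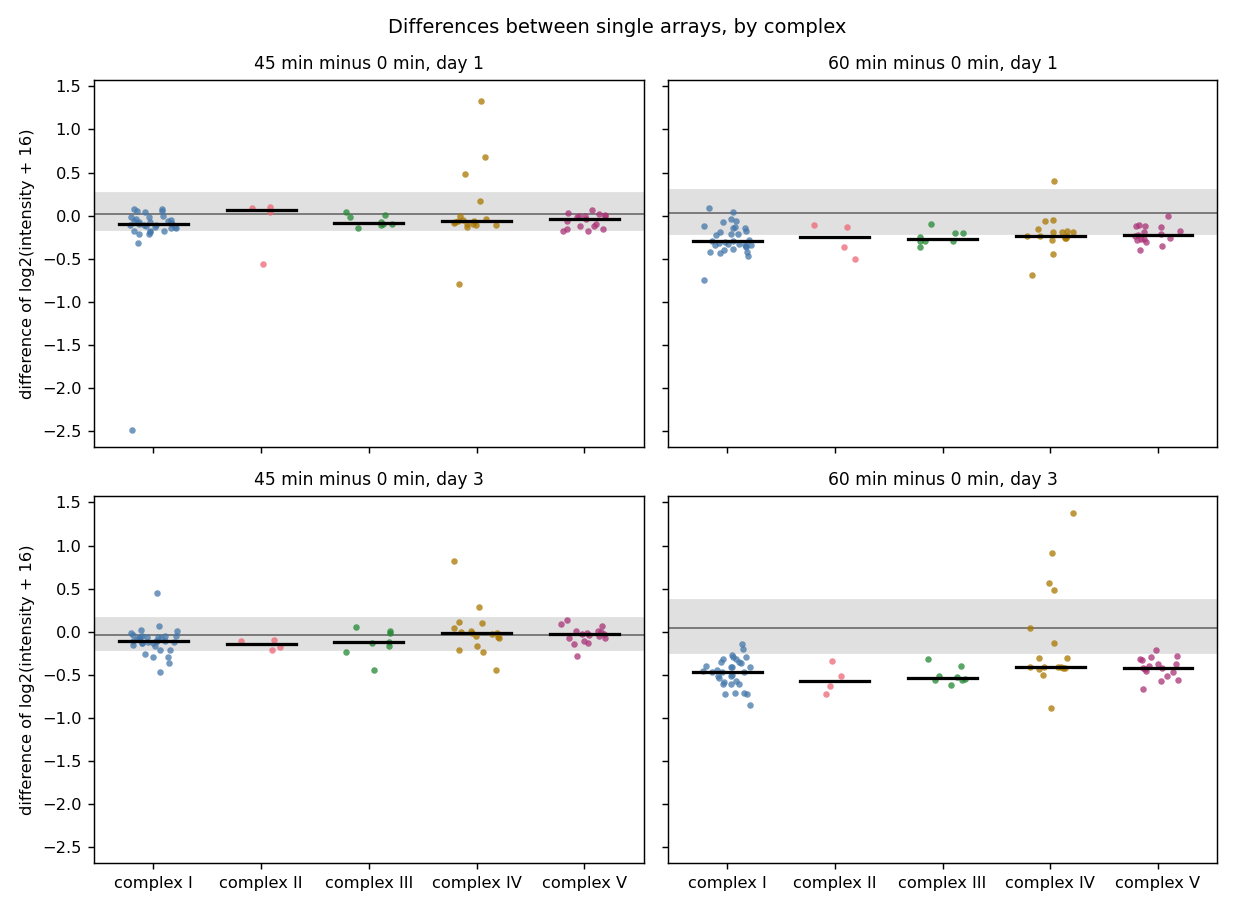
Each point is a member that passed the filter, placed by complex, and its height is the difference of log2(intensity + 16) between the 2 arrays named above the panel; black bars are medians of a complex, the grey line is the median of all 12734 genes and the grey band their interquartile range. At 60 min day 3 the 5 complex medians lie between -0.57 and -0.41, and the points above 0 all belong to complex IV.

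In the fit of clamp time and day by limma, the members' median for 60 min against 0 min was -0.33 (20.2% lower) and 75 of 79 were negative, against a median of 0.03 over all genes. No gene of any kind passed an adjusted p under 0.05 in this comparison (0 of 12734, 0%), and the smallest adjusted p was 0.141 among members and 0.0644 among all genes. With an intensity trend and robust estimation in limma the count was 615 genes, and Ndufb10 was the 1 member among them. At an unadjusted p under 0.05 there were 20 of 79 members, all lower, and 2723 of 12734 genes in either direction, of which 1047 were lower. The members' share was near that of all genes in either direction, and above that of all genes that were lower. The design left 2 residual degrees of freedom, which limits what it can call.

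The size of the shift depended on how arrays were scaled. With quantile normalization the median for 60 min against 0 min was -0.18 and both 60 min arrays lay below both 0 min arrays for 48 members and for 28.4% of all genes. With median centring it was -0.42. By complex the quantile-normalized medians were -0.22 (I), -0.28 (II), -0.22 (III), -0.12 (IV) and -0.17 (V), so every complex kept a negative median. For single arrays they were -0.10 at day 1 and -0.25 at day 3. Median centring moved the all-gene median by -0.17 for 60 min against 0 min at day 3 and by 0.12 for day 3 against day 1 at 0 min, and the members moved with it. Brightness ran alongside: the 854 other genes with a mean intensity of at least 5000 had a median of -0.21 in this fit, and both 60 min arrays lay below both 0 min arrays for 54.3% of them. The 67 members as bright had a median of -0.34 and 66 of the 67 were below. With quantile normalization these medians were -0.06 for the other bright genes and -0.19 for the members.

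In complex I, the NADH dehydrogenase, all 33 members were lower at 60 min in the fit, with a median of -0.38 and a range of -0.60 to -0.14. The single-array medians were -0.30 at day 1 and -0.46 at day 3. The 6 core subunits measured here (Ndufs1, Ndufs3, Ndufs7, Ndufs8, Ndufv1 and Ndufv2), which hold the flavin and the iron-sulfur clusters or lie beside them, had a median of -0.48 and all 6 had both 60 min arrays below both 0 min arrays. The 27 accessory subunits had a median of -0.36, and 24 of 27 were below. This grouping into core and accessory subunits was made after the values were seen.

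Ndufv1, which binds FMN and takes the electrons from NADH, read 9938, 8779.9 and 7843 at day 1 (0, 45 and 60 min) and 11319, 10060 and 6843 at day 3. Both days ran downward with clamp time. Ndufs1, the largest iron-sulfur subunit, read 7267, 6597 and 5401 at day 1 and 8318, 7739 and 5069.9 at day 3, and both 60 min arrays lay below the other 4. The limma difference for 60 min against 0 min was -0.53 ± 0.17 (SE, adjusted p = 0.186) for Ndufv1 and -0.57 ± 0.16 (SE, adjusted p = 0.157) for Ndufs1. Ndufs7, which holds the last iron-sulfur cluster before coenzyme Q, read 10036, 8057 and 7466 at day 1 and 8639.7, 8232 and 5939.7 at day 3 (-0.48 ± 0.16, SE).

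The lowest bright member was Ndufb10, an accessory subunit of the membrane arm, at 8339.9, 7206 and 6036 at day 1 and 8779, 7325 and 5336 at day 3. Its difference of -0.59 ± 0.15 (SE, adjusted p = 0.141 by limma) had the smallest adjusted p of any member. At the other end, Ndufs4 read 3545, 3728 and 3661 at day 1 and 4021, 3666 and 3223 at day 3 (-0.14 ± 0.16, SE), and Ndufa12 had -0.15 ± 0.14 (SE). For Ndufs4 the 3 day 1 arrays had no order with clamp time. Both values rest on the chosen probe set: 2 dimmer Ndufs4 probe sets gave -0.49 and -0.44 and ran downward with clamp time on both days, and 2 other bright Ndufa12 probe sets gave -0.43 and -0.36.

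Some complex I values rest on dim or disputed probe sets. The chosen probe set of Ndufs5 read 5864, 1033 and 3503 at day 1 and 938, 762 and 676 at day 3. Another probe set, which names Ndufs5 and its pseudogene Ndufs5-ps, read 6002, 5863 and 4787 at day 1 and 7479.7, 5872 and 5038 at day 3. The low value of the first at 45 min day 1, and its low level on all 3 day 3 arrays, are absent on the second, while at day 3 both ran downward with clamp time. The 60 min against 0 min difference was -0.60 ± 0.55 (SE) on the first, which is uncertain, and -0.45 on the second. Ndufb4 was represented by a dim probe set (50.3, 42.3 and 36.5 at day 1, 74.5, 68.0 and 34.2 at day 3) because its 2 bright ones also name Ndufb4b and Ndufb4c. Those 2 gave -0.55 and -0.53, close to the -0.59 of the dim one. Ndufb1 read 148 to 318 and showed no order with clamp time.

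Complex II had the most negative median of the 5 in the fit, -0.42 over its 4 genes, with single-array medians of -0.24 at day 1 and -0.57 at day 3. Sdha, the flavoprotein that oxidises succinate, read 14919, 10123 and 10502 at day 1 and 12910, 11983 and 8363 at day 3. At day 1 this probe set was thus low on both clamped arrays, and at day 3 mainly at 60 min. Another bright Sdha probe set read 11012, 8440 and 7489 at day 1 and 9916, 9385 and 6015 at day 3, downward with clamp time on both days. A dim Sdha probe set gave 0.45 for 60 min against 0 min. Sdhb, the iron-sulfur subunit, read 15432, 15951 and 12024 at day 1 and 20812, 17989 and 12647 at day 3, and both 60 min arrays lay below the other 4.

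The limma differences for 60 min against 0 min were -0.57 ± 0.19 (SE, adjusted p = 0.199) for Sdha and -0.54 ± 0.16 (SE, adjusted p = 0.170) for Sdhb. The membrane anchors Sdhc and Sdhd, which bind coenzyme Q, were closer to 0. Sdhc read 6086, 6464 and 5648 at day 1 and 7002, 6535 and 4917 at day 3 (-0.31 ± 0.17, SE). Sdhd read 6768, 7232 and 6191 at day 1 and 8148, 7184 and 6419 at day 3 (-0.24 ± 0.15, SE), and a dimmer second probe set of Sdhd gave 0.02. With 4 genes the median moves easily: it was -0.25 when probe sets of a gene were averaged, and -0.27 on leaving out 0 min day 3.

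Complex III, the cytochrome bc1 complex, had 8 of 8 genes lower at 60 min, within the narrowest range of the 5 complexes, -0.44 to -0.30, and a median of -0.39. Uqcrfs1, the Rieske iron-sulfur protein, read 13562, 12297 and 10520 at day 1 and 15727, 15603 and 10960 at day 3 (-0.44 ± 0.15, SE). Uqcrc1, a core structural subunit, read 10951, 10231 and 8960.4 at day 1 and 14523, 10677 and 10148 at day 3 (-0.40 ± 0.16, SE). At day 3 Uqcrc1 was low on both clamped arrays, while Uqcrfs1 was low at 60 min only. The smallest difference was that of Uqcrb, a coenzyme Q binding subunit, at -0.30 ± 0.15 (SE), and the second smallest that of Uqcrq, at -0.33 ± 0.18 (SE). Uqcr11 stood next to Uqcrfs1 at the other end with -0.41 ± 0.17 (SE). No complex III gene had an adjusted p below 0.202 in limma.

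The genes of complex IV, cytochrome c oxidase, were grouped into widely expressed subunits and tissue-restricted isoforms, again after the values were seen. Of 11 widely expressed genes (Cox4i1, Cox5a, Cox5b, Cox6a1, Cox6b1, Cox6c, Cox7a2, Cox7a2l, Cox7c, Cox8a and Ndufa4, a former complex I subunit) 10 had both 60 min arrays below both 0 min arrays, with a median of -0.30 over the 11. The exception was Cox7c, measured by a dim probe set (180.2 to 306), at 0.21, and the range ran from -0.37 (Cox8a) to that value. Cox7a2l was below on its chosen probe set only. Of the 6 restricted isoforms tested, Cox8c alone had both 60 min arrays below both 0 min arrays, and the median was 0.05. Cox4i1, the common form of subunit 4, read 22064, 21062 and 18715 at day 1 and 27716, 23606 and 20820 at day 3. Cox5a, which with Cox5b forms part of the nuclear shell around the catalytic core, read 30024, 27826 and 24671 at day 1 and 32393, 32674 and 26327 at day 3. Cox5b read 23654, 22049 and 20816 at day 1 and 25482, 24618 and 18920 at day 3. In each of the 3 genes the 60 min array was the lowest of its day.

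Isoform pairs of complex IV can be set side by side, and the restricted forms varied more than the widely expressed ones. Cox6a1 (28360, 25830 and 23757 at day 1, 28906, 30918 and 23336 at day 3) had -0.28 ± 0.16 (SE) and its muscle form Cox6a2 had 0.12 ± 0.39 (SE). Cox6b1 had -0.32 ± 0.15 (SE) and Cox6b2, known from testis, had 0.44 ± 0.33 (SE). Cox8a had -0.37 ± 0.15 (SE), against -0.01 ± 0.38 (SE) for the muscle and brown fat form Cox8b and -0.29 ± 0.15 (SE) for Cox8c. Cox8c was dim, at 275, 267 and 242 at day 1 and 254, 244 and 188 at day 3, downward with clamp time on both days. Ndufa4 had -0.30 ± 0.15 (SE) and its relative Ndufa4l2, known as a hypoxia-induced gene, had 0.67 ± 0.35 (SE). The differences within these pairs were not tested, and the standard errors of the dim forms are 2 or more times as large in 4 of the 5.

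The heart and muscle form Cox7a1 read 644, 905 and 468 at day 1 and 1279.5, 1219 and 688 at day 3. The 60 min array was the lowest on each day, and both day 3 arrays at 0 and 45 min were above all of day 1. Its limma difference of -0.66 ± 0.19 (SE, adjusted p = 0.161) was the lowest of all 79 members, while Cox7a2, the widely expressed form, had -0.33 ± 0.16 (SE) and Cox7a2l, a factor in supercomplex assembly, -0.20 ± 0.15 (SE), with -0.02 and -0.19 on its other probe sets. At day 3 those other Cox7a2l probe sets were higher at 60 min than at 0 min, by 0.13 and 0.05.

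Cox6a2 and Ndufa4l2 stood in a different order on the 2 days. Cox6a2 read 114, 59.2 and 65.1 at day 1 and 47.6, 61.4 and 104 at day 3, so the clamped arrays were below 0 min at day 1 and above it at day 3. Ndufa4l2 read 77.2, 71.3 and 74.4 at day 1 and 36.2, 76.2 and 120.1 at day 3. The difference of the clamp effect from day 1 to day 3 was 1.34 ± 0.46 (SE) for Cox6a2 and 1.17 ± 0.43 (SE) for Ndufa4l2 in limma, and neither passed (adjusted p = 1.00 for both). These are dim probe sets. Cox8b read 242, 634 and 231 at day 1 and 497, 512 and 513 at day 3, and Cox6b2 read 474, 771 and 630.3 at day 1 and 343, 248 and 488 at day 3, with no order by clamp time in either. Cox4i2 read 24.1 to 50.0 and Cox7b2 read 1.2 to 26.7, both under the filter.

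As several of these forms are known from muscle or brown fat, markers of those tissues stand beside them. Of 8 striated muscle markers 2 passed the filter (Ckm and Acta1), and the rest, Myh1 and Myh4 among them, read under 90. The summed level of the 8 ran from 178.75 (0 min day 3) to 361.44 (60 min day 3). Of the 4 fat markers on the array 3 passed, with summed levels from 1650.3 (60 min day 1) to 3099.5 (45 min day 3). Ucp1, the uncoupling protein of brown fat, read 153, 301 and 394 at day 1 and 189, 498 and 485 at day 3, and Cidea read 391, 345 and 227 at day 1 and 712, 794 and 749 at day 3. Cidea, Ucp1 and Cox7a1 were each higher on the 3 day 3 arrays than on the day 1 array of the same clamp time. The other fat marker of the 3 that passed went the other way at 0 min, with a day 3 minus day 1 difference of -0.05 on the log2 scale. The part of fat or muscle in the levels of these isoforms was not tested.

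**Figure D3:**
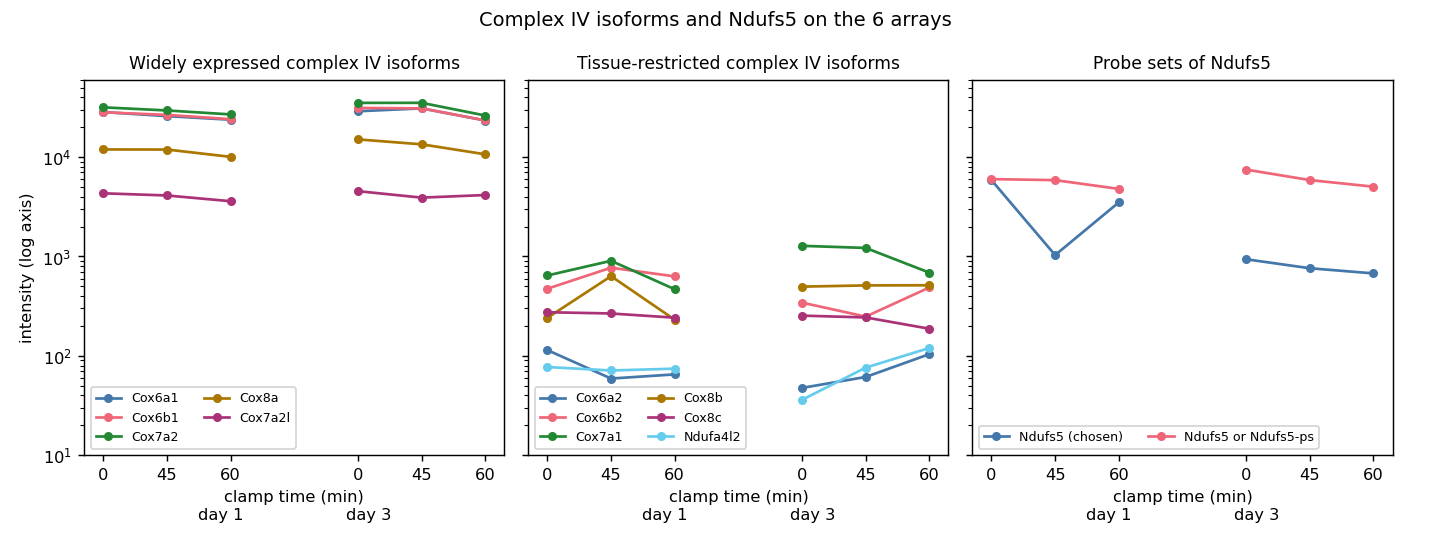
Intensity on a log axis against clamp time in minutes, day 1 left and day 3 right in each panel, for 5 widely expressed complex IV genes, 6 tissue-restricted isoforms and the 2 probe sets that name Ndufs5. The widely expressed forms run almost parallel, apart from Cox7a2l at day 3, the restricted forms cross, and the chosen Ndufs5 probe set (5864, 1033 and 3503 at day 1) parts from the other one.

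In complex V all 17 genes were lower at 60 min in the fit, with a median of -0.32 and a range of -0.46 to -0.11, and 16 of 17 had both 60 min arrays below both 0 min arrays. Atp5mpl was the exception, at 9083 (0 min day 1) against 9174 (60 min day 3). The genes were grouped by place in the enzyme, again after the values were seen. The F1 part, a catalytic head and a central stalk (Atp5a1, Atp5b, Atp5c1, Atp5d and Atp5e), had a median of -0.38. The peripheral stalk (Atp5pb, Atp5h, Atp5j and Atp5o), which holds the head still, had -0.32, and the membrane subunits Atp5j2, Atp5k, Atp5l, Atp5md and Atp5mpl had -0.29. The 3 genes of the rotating c ring had -0.23. Without the 60 min day 3 array the median of complex V was -0.19.

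Atp5a1, the alpha subunit, read 19962, 18449 and 16556 at day 1 and 22228, 21126 and 14065 at day 3 (-0.46 ± 0.18, SE, limma adjusted p = 0.227). Atp5b, the catalytic beta subunit, read 26179, 24039 and 21534 at day 1 and 29067, 29179 and 20964 at day 3 (-0.38 ± 0.16, SE). For both the 60 min array was the lowest of its day, and at day 3 the 45 min array differed from 0 min by only -0.07 and 0.01 on the log2 scale. The c subunit genes encode the same mature protein. Atp5g1 read 7873, 7849 and 7222 at day 1 and 8472, 8071 and 6723 at day 3. Atp5g3 read 26439, 23464 and 22848 at day 1 and 27111, 28340 and 22108 at day 3. Atp5g2 read 6511, 6492 and 6492 at day 1 and 7257, 6652 and 6259.8 at day 3, the flattest of the 17 (-0.11 ± 0.15, SE), and its second, dim probe set gave 0.03.

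The medians of the 5 complexes for 60 min against 0 min lay between -0.42 (complex II) and -0.29 (complex IV), a gap smaller than the standard error of most single genes. By array, complex medians relative to each gene's own mean were -0.23 to -0.14 at 60 min day 1 and -0.30 to -0.16 at 60 min day 3, against 0.18 to 0.27 at 0 min day 3. Complexes I, II and III had lower medians than IV and V on both days, but with quantile normalization complex III (-0.08) was above both at day 1. The lowest was complex I at day 1 (-0.30) and complex II at day 3 (-0.57).

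The 2 unclamped kidneys give the only view of how far these genes move without a clamp. Member intensities were higher on the 0 min day 3 array than on the 0 min day 1 array by a median of 0.15, and 66 of 79 were higher, while the all-gene median was 0.00. By at least 25%, 13 members were higher, against 15.1% of all genes. The difference was 0.16 at 45 min, where it became -0.0092 under quantile normalization, and -0.04 at 60 min. This 0.15 between unclamped kidneys stands beside the 0.24 by which the 60 min array lay below 0 min at day 1. Atp5mpl alone had all 3 day 3 arrays above all 3 day 1 arrays (4.26% of all genes did), and Ndufs5 alone had them below.

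In limma the members' median for day 3 against day 1 was 0.10, for clamped kidneys (45 and 60 min together) against 0 min -0.20, for 45 min against 0 min -0.06, for 60 min against 45 min -0.26 and, for how the effect of clamping differed between days, -0.11. In each of these 5 comparisons limma called 0 of 12734 genes at an adjusted p under 0.05 (0%). At an unadjusted p under 0.05 there were 3 of 79 members (1153 of 12734 genes), 2 (1858), 0 (740), 3 (1661) and 2 (282) in that order. The members' share was below that of all genes in all but the last comparison, where it was close to it. The 3 members of 60 min against 45 min were Cox7a1 (-0.87 ± 0.19, SE), Ndufs1 (-0.45 ± 0.16, SE) and Sdhb (-0.46 ± 0.16, SE). The median for the difference between days in the clamp effect became 0.077 on leaving out 60 min day 3 and -0.28 on leaving out 45 min day 3, so its sign rests on single arrays. Without the 60 min day 3 array the median for 60 min against 45 min was -0.16. With quantile normalization the medians were -0.10 for clamped against 0 min, -0.15 for 60 min against 45 min and 0.021 for day 3 against day 1.

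Other mitochondrial genes were counted from lists. Of 19 genes of the TCA cycle and pyruvate dehydrogenase, which supply NADH and succinate, 18 had both 60 min arrays below both 0 min arrays (23.5% of all genes did), with a median of -0.41. The exception was Pdk4, a kinase that inhibits pyruvate dehydrogenase (0.00). Of 15 electron carrier genes (cytochrome c, electron transfer flavoprotein, coenzyme Q synthesis) 10 were below, with a median of -0.38. That list also names Dhodh, Gpd2 and the complex I subunit Ndufab1, whose symbol the rule does not match. Coq9, needed for coenzyme Q synthesis, had -0.59 ± 0.15 (SE), and Cyc1, the cytochrome c1 subunit of complex III that the symbol rule does not reach, had -0.38 ± 0.18 (SE).

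The genes that assemble or serve the complexes were closer to the background. Of 41 assembly factors 23 were below, with a median of -0.18, from Sdhaf1 at -0.48 ± 0.21 (SE) to Uqcc2 at 0.28. A list for the ATP synthase inhibitor and exchange of ADP, ATP and phosphate, which also names Ckmt1, Ucp2 and Vdac genes, had 8 genes tested. Of these 4 were below, with a median of -0.14. Slc25a5, an ADP and ATP carrier, had -0.40 ± 0.16 (SE) and Atpif1, the inhibitor, -0.11. None of these had an adjusted p under 0.05 in limma.

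Of 18 regulators of mitochondrial biogenesis 8 were below, with a median of -0.19. Ppargc1a, a coactivator that drives transcription of respiratory genes, read 2201, 2041 and 1498 at day 1 and 2133, 1880.4 and 1199 at day 3. The values ran downward with clamp time on both days, and the limma difference for 60 min against 0 min was -0.69 ± 0.15 (SE, adjusted p = 0.119). Esrrb, an estrogen-related receptor, had -0.73 ± 0.19 (SE, adjusted p = 0.144). Among genes of the other factors whose motifs were searched, Nrf1 had 0.20, Gabpa -0.23, Yy1 0.12, Esrra -0.25 and Esrrg -0.36, and the smallest adjusted p of these was 0.246 in limma. Members with at least 1 of the 4 motifs in a RefSeq window (34 genes off chromosome 18) had a median of -0.35, and the 31 with none had -0.31. This is a description, with no test.

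Markers of kidney cell types also differed in the same comparison. Of 10 proximal tubule markers 8 had both 60 min arrays below both 0 min arrays, with a median of -0.52, and their summed level was 104400 at 60 min day 1 and 108030 at 60 min day 3 against 126210 to 153830 on the other 4 arrays. The 4 distal convoluted tubule markers were all below (median -1.87), as were 5 of 5 intercalated cell markers (-0.79) and 4 of 5 of the thick ascending limb (-0.48). Markers of injured tubule (3.25), macrophages (1.10) and fibroblasts (1.63) had positive medians, and Lcn2 had 3.20 ± 0.22 (SE, limma adjusted p = 0.0644). The part of cell composition in the members' difference was not tested.

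**Figure D4:**
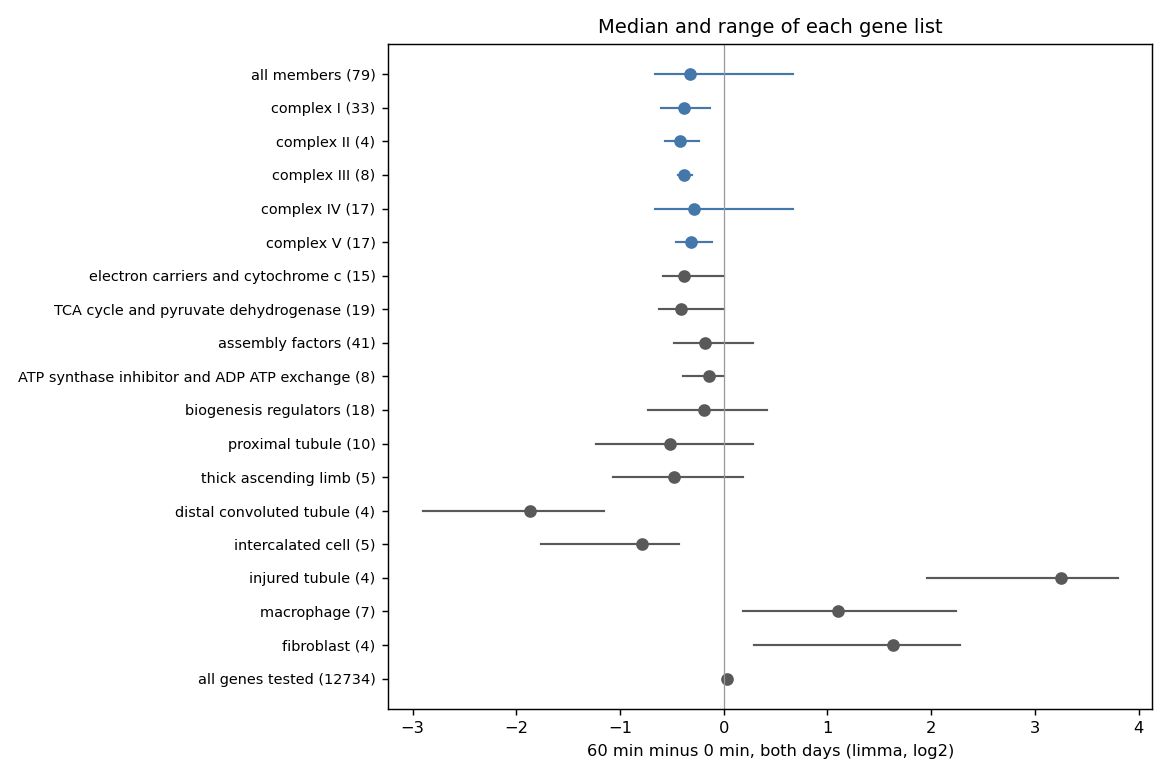
Median (dot) and lowest to highest gene (line) of the limma difference of log2(intensity + 16) for 60 min against 0 min in each list, with the number of genes tested in brackets; for all genes only the median is drawn. The 5 complexes (medians -0.42 to -0.29), the TCA cycle list (-0.41) and the electron carriers (-0.38) lie together, between all genes (0.03) and the distal convoluted tubule markers (-1.87).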

How the data were processed

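Each array's deposited column holds 1 linear intensity for every probe set. The submitters' processing notes name Affymetrix Expression Console as the tool the authors used to make these intensities; neither its version nor its summarisation method was given in any source read. Of 45101 probe sets, 64 were controls, 34945 had 1 symbol in the platform annotation, 932 had several and 9160 had none. Only those with 1 symbol were used for genes. Intensities were analysed as log2(intensity + 16), which makes fold changes of dim genes smaller. Genes were kept at or above the 40th percentile of mean level (log2 6.01). Differences were fitted over all 12734 genes with limma 3.58.1 in R 4.3.3 (clamp time plus day, or 4 cells for the change between days, each with 2 residual degrees of freedom) and Benjamini-Hochberg adjustment, and the fit was tested on simulated data. The members, the lists and the rule for named genes (all Sdh genes, isoform sets, catalytic subunits, the 2 highest and 2 lowest of each complex) were chosen with earlier results of these data known. Some genes named in that rule are not reported here. Alternatives were other scalings, pseudocounts, filters, probe set choices, variance models and leaving out each array.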

Additional observations from a re-analysis of the deposited data

Results flagged for a closer look

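For 3 members both clamped arrays lay on one side of the 0 min array at day 1 and on the other side at day 3. Cox6a2 differed from 0 min by -0.79 (45 min) and -0.68 (60 min) at day 1 and by 0.28 and 0.92 at day 3. Ndufa4l2 differed by -0.094 and -0.044 at day 1 and by 0.82 and 1.38 at day 3. Ndufs4, an accessory subunit of complex I, differed by 0.072 and 0.046 at day 1 and by -0.13 and -0.32 at day 3. On 2 other, dimmer Ndufs4 probe sets all these differences were negative on both days (-0.50 and -0.41 for 60 min at day 1). The limma test of the difference between days gave 1.34 ± 0.46, 1.17 ± 0.43 and -0.28 ± 0.31 (SE), and none of the 3 passed (adjusted p = 0.99999 for each). Both differences of a day share its single 0 min array, and the probe sets of Cox6a2 and Ndufa4l2 are dim.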

How the results depend on the processing

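Of the recomputed values of the members, 329 stayed within the spread between arrays or within 1.5 times the count, 52 moved further and 6 changed sign; the causes were not tested. Median centring gave member medians of -0.29 (clamped against 0 min), -0.42 (60 min against 0 min; complex I -0.48, III -0.48, IV -0.39, V -0.42), -0.15 (45 min against 0 min; complex I -0.18, IV -0.13) and -0.19 (change of the clamp effect between days). Its single-array medians were -0.15 and -0.16 for 45 min at day 1 and day 3, -0.59 for 60 min at day 3, -0.45 for 60 against 45 min at day 3, and 0.27 and 0.26 for day 3 against day 1 at 0 and 45 min. Quantile normalization gave -0.10 (clamped), -0.18 (60 min against 0 min; complexes I to V -0.22, -0.28, -0.22, -0.12 and -0.17), 0.019 (complex IV, 45 min), -0.15 (60 against 45 min) and 0.021 (day 3 against day 1). Its single-array medians were 0.044 for 45 min at day 1, -0.10 and -0.25 for 60 min at day 1 and day 3, -0.17 for 60 against 45 min at day 3 and -0.0092 for day 3 against day 1 at 45 min. It left 8 members with both 45 min arrays below both 0 min arrays and 2 with all day 3 arrays above day 1. Averaging probe sets gave -0.25 for complex II and likewise 2 members with all day 3 arrays above day 1. The all-gene shares for these counts are not given under either setting, so they have no background beside them. In the main analysis those shares were 16.6% and 4.26%. An intensity trend with robust estimation called 1 member (Ndufb10) among 615 genes for 60 min against 0 min. That gene count was also 20 with averaged probe sets, 135 with median centring, 202 with a stricter filter, 277 with a pseudocount of 64, and 75 with the trend for clamped kidneys. Leaving out each array in turn gave 60 min against 0 min medians of -0.44 to -0.24 (complex I -0.46 to -0.30, II -0.56 to -0.27, III -0.52 to -0.26, IV -0.37 to -0.21, V -0.42 to -0.19). It gave -0.20 to 0.076 for complex II and -0.11 to 0.014 for complex IV at 45 min, -0.36 to -0.16 for 60 against 45 min, and -0.28 to 0.077 for the change between days, which relative to all genes was 0.0062 without 45 min day 1 and 0.13 without 60 min day 3. The members called for clamped kidneys were 0 to 1 (Ndufs5, without 45 min day 3, among 200 genes), and the genes called for 60 min against 0 min reached 450. Without a 0 min array the change between days rests on fewer cells and gave no value. No paired analysis was possible because the labels carry no replicate numbers and each group has 1 array; day was a term in the fit of clamp time. The scanner background is not in the values used here, so dim probe sets have no stated limit of detection.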
